A study of Ovis aries with 12 samples.

Results

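The passage across birth was followed in the longissimus, a long back muscle of sheep, by comparing late fetal with early postnatal animals. The comparison took 6 of the 12 libraries of the series, chosen by age from the sample titles. G133 is day 133 of gestation and D42 is day 42 after birth. The ages outside the comparison, G85 and D243, are day 85 of gestation and day 243 after birth. There were 3 libraries at each age, all from Suffolk by Texel crossbred animals, with no treatment named in the labels. Messenger RNA was selected by its poly(A) tail and sequenced. All 15743 genes of the table were used. The descriptions give each library of G133 and D42 a different leading number, and D42 and D243 carry the same 3 numbers. Whether a shared number marks the same animal is not stated. The labels do not state what these numbers are or how litters and dams were arranged, so the spread behind the p-values is that of the libraries, whatever its source.

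In sheep, muscle fibres are laid down before birth, and growth after birth comes mainly from their enlargement. Around birth, muscle in mammals replaces developmental forms of its contractile proteins with adult forms. It also moves from a supply of glucose through the placenta to the fat of milk, and it begins to bear the animal's weight. This is background. The table names genes by Ensembl identifiers only, and 0 of the 15743 identifiers could be matched to a symbol. No gene below is therefore tied to these processes, and the labelled tissue was not checked against muscle markers. Only 4 genes are given by identifier, and the other genes are described as groups.

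Expression was read on 2 scales. CPM (reads of a gene per 1000000 reads of the library) give each gene as a share of its library. On the median-ratio or rescaled scale, each library's CPM were divided by its typical ratio to the geometric mean profile (the median gene), which keeps that gene level. The dividing factor was 1.04 to 1.22 at G133 and 0.847 to 0.869 at D42. Log2 changes are D42 minus G133 on log2(value + 1), which understates the change of low genes. They were tested with limma in a model over the 12 libraries, with Benjamini-Hochberg adjustment over all genes and a threshold of 0.05.

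The libraries held 15673716 to 23255962 reads at G133 and 10556715 to 18319851 at D42. G133 replicate 1 stood apart from the other G133 libraries. After rescaling, its root mean square log2 distance to the D42 libraries averaged 0.581, against 0.728 and 0.761 for replicates 2 and 3. Its distance to the G85 libraries was also the smallest of the 3, at 0.644 against 0.732 and 0.725. The position of each library was then taken on the genes called without it. The mean of the other libraries of its age was set to 0% and the mean of the other age to 100%. The median position of G133 replicate 1 on the rescaled values was 36.7% over 5504 genes, and 37% of these genes lay past the midpoint. Replicates 2 and 3, whose 0% includes replicate 1, had medians of -7.08% and -12%, and the D42 libraries -0.207% to 9.93%. As CPM, G133 replicate 1 lay at 16.3%, replicates 2 and 3 at 6.34% and 7.2%. The counts below are therefore also given without it where they turn on it.

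**Figure D1:**
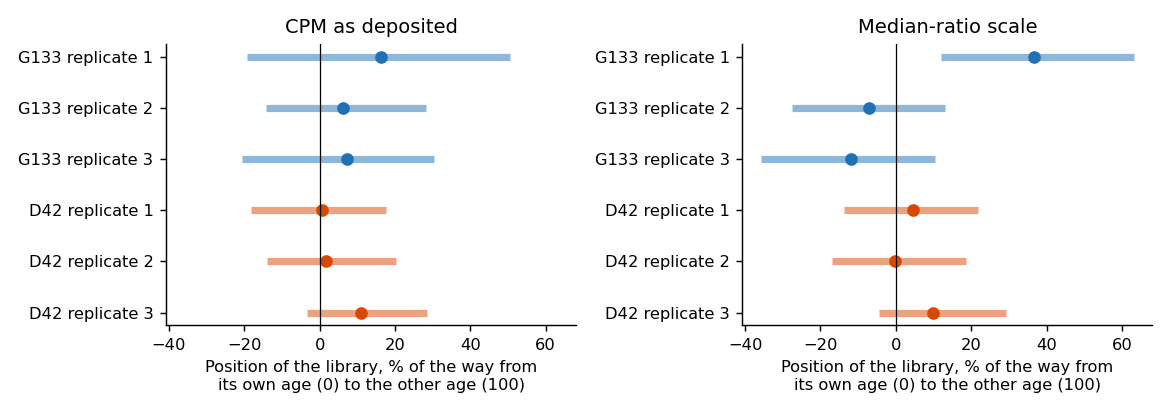
Position of each G133 and D42 library, in percent of the way from the mean of the other libraries of its age (0) to the mean of the other age (100), on genes called without it. Dots are medians over genes and bars the middle 50% of genes. On the median-ratio scale G133 replicate 1 lies at 36.7%, to the right of the other 5 libraries.

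Reads became concentrated in far fewer genes between late gestation and day 42. In G133 replicates 1, 2 and 3, 50% of the reads came from 358, 244 and 242 genes. In the D42 libraries the same share came from 74, 85 and 86 genes. G133 and D42 did not overlap, with means of 281 ± 66.4 and 81.7 ± 6.66 genes (SD, n = 3 each). Outside the comparison the numbers were 796, 572 and 728 at G85 and 71, 95 and 51 at D243. The number was thus already lower at G133 than at G85. The 10 most abundant genes of a library held 15.3%, 13.4% and 12.5% of its reads at G133 and 29.3%, 28.3% and 29.2% at D42. The top 50 went from 27.2% ± 1.41 to 45.8% ± 0.598 and the top 500 from 57.8% ± 3.31 to 65.2% ± 0.65 (SD, n = 3 each). Ranks 51 to 500 of a library moved the other way. They held 25.3%, 32.6% and 33.8% of reads at G133 and 19.5%, 19.3% and 19.5% at D42, a set of values with no test of its own. For the number of genes and the top 10, top 50 and top 500 shares the two-sided exact permutation p was 0.1 each, and 0.1 after adjustment over the 4. That is the smallest p that 3 libraries against 3 allow. No 0.05 threshold can be reached this way.

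As CPM, the gains were carried by few genes and the losses by many. Between the mean profiles of the 2 ages, 3631 genes gained CPM and 12111 lost them. CPM are shares of a library, so all gains and all losses add up to the same total. A gain by some genes therefore lowers the share of others. These gains and losses were counted as CPM only, and how many of the losses follow from the gains was not tested. On the median-ratio scale the median gene moved by -0.02, with 2755 genes called higher and 2346 lower. Only 9 genes made up 50% of the gains and 204 made up 90%. For the losses the same shares took 138 and 2897 genes. Over the 9 pairs of a G133 with a D42 library, the number for 50% ran from 6 to 12 for gains and from 102 to 367 for losses. The upper end for losses rested on G133 replicate 1: its 3 pairs gave 300 to 367 losing genes and the other 6 pairs 102 to 130. For gains these ranges were 6 to 9 and 7 to 12. With replicate 1 left out of the G133 mean, 10 gaining and 114 losing genes made up 50%. The largest gain was 21.7% of all gains, and the largest loss 1.86% of all losses.

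**Figure D2:**
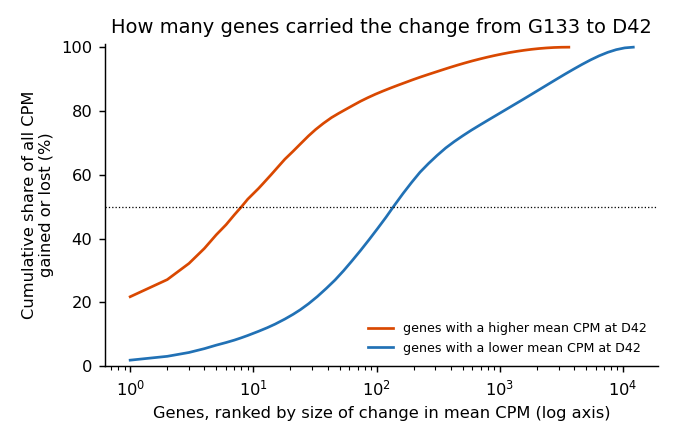
Cumulative share of all CPM gained (orange) or lost (blue) from G133 to D42, against the number of genes ranked by the size of their change in mean CPM. The dotted line marks 50%, which 9 gaining and 138 losing genes reach.

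The 9 leading gainers were chosen by their G133 and D42 means, so only their G85 levels are free of the choice. The D243 libraries played no part in it, but they share their leading numbers with D42 and may come from the same animals. Together the 9 gainers held 11.9%, 9.27% and 8.65% of reads in the G133 libraries and 26.3%, 26% and 27.2% in the D42 libraries. In the G85 libraries, which played no part in choosing them, they held 3.87% to 5.9%, and in the D243 libraries 23.6% to 29.7%. The 138 leading losers held 16.9%, 24.8% and 28.7% in G133 replicates 1, 2 and 3 and 6.98% to 7.91% at D42. At G85 they held 18.1% to 23.3% and at D243 7.71% to 8.91%. G133 replicate 1 was the highest of its age for the gainers and the lowest for the losers, which is toward D42 in both. Of the 9 gainers 7 were called higher on both scales, where 8.11% of all genes were, and of the 138 losers 126 were called lower, where 14.9% of all genes were. The test used the means that chose these genes, so these counts only describe them.

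One gainer was the most abundant gene of every library. It held 4.73%, 4.22% and 4.42% of reads at G133 and 11.3%, 10.4% and 12.4% at D42, without overlap. Its log2 change was 1.34 ± 0.46 (SE) as CPM and 1.70 ± 1 on the median-ratio scale. The limma adjusted p was 0.0286 and 0.223. The model lets the expected spread vary with abundance, and with no such trend the limma adjusted p was 4.98e-05 and 3.3e-05. On recovered reads it was 0.00529 by edgeR and 2.81e-19 by DESeq2. As CPM the call was lost without G85 replicate 1 or 2, without G133 replicate 2 and without any D42 library, with limma adjusted p of 0.0604 to 0.0912. It was also lost in a fit to the G133 and D42 libraries alone (limma adjusted p = 0.268). The gene was singled out after its values were seen.

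Across birth, as CPM, 7452 genes changed, or 47.3% of those tested. Of all genes, 8.11% rose (1277) and 39.2% fell (6175). After rescaling, 5101 changed (32.4%), with 2755 higher (17.5%) and 2346 lower (14.9%). The median gene moved by -0.33 as CPM and by -0.02 on the median-ratio scale. Within any one library, every gene is multiplied by the same number in that step. The calls that differed were mainly of small changes. Of the 6175 falls as CPM, 2346 were also called lower on the median-ratio scale, with a median log2 change of -1.05 as CPM. The other 3829 had a median of -0.53 as CPM and -0.21 after rescaling, where 74 of them lay above 0. A further 1479 genes, with a median of 0.23 as CPM and 0.56 after rescaling, were called higher only on the median-ratio scale. No gene (0) was called in opposite directions. G133 replicate 1 moved the balance as CPM: without it 1732 genes rose and 4847 fell (rescaled: 2948 rose, 2556 fell).

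**Figure D3:**
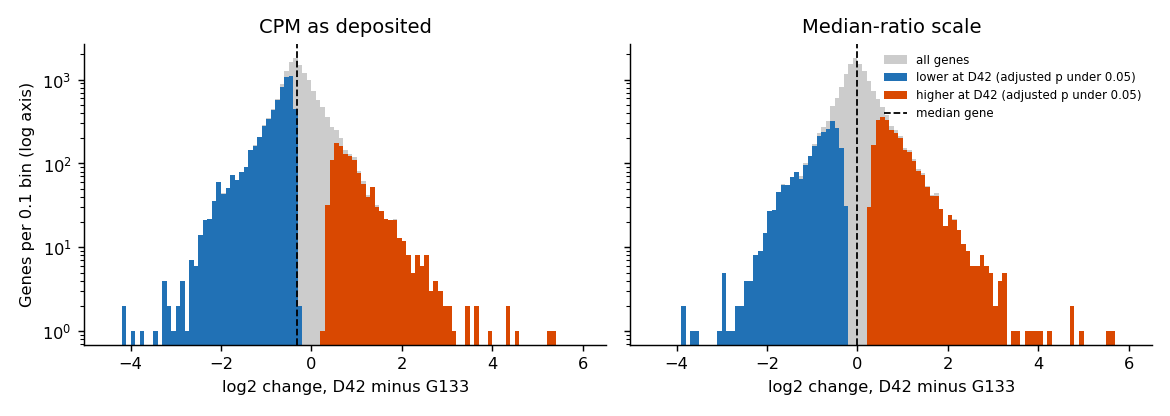
Histogram of the log2 change, D42 minus G133, over 15743 genes on the 2 scales, with a log axis for the number of genes. Colours mark genes with an adjusted p under 0.05 and the dashed line the median gene, at -0.33 as CPM and -0.02 on the median-ratio scale.

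Most called changes were under 2-fold. As CPM, 432 genes were at least 2-fold higher at D42 (2.74%) and 1380 at least 2-fold lower (8.77%). After rescaling the numbers were 858 (5.45%) and 700 (4.45%). Changes of at least 4-fold numbered 72 rises (0.457%) and 185 falls (1.18%) as CPM, and 135 (0.858%) and 56 (0.356%) after rescaling. At 8-fold or more the rises numbered 13 (0.0826%) and the falls 12 (0.0762%) as CPM, against 23 (0.146%) and 5 (0.0318%) after rescaling. Which side held more of the large changes therefore depended on the scale up to 4-fold, and rises were the more numerous from 8-fold on both, as CPM by 1 gene. The median change of a called gene was 0.76 for rises and -0.76 for falls after rescaling. The 3 D42 libraries lay wholly above the 3 G133 libraries for 3690 genes (23.4%) and wholly below for 3619 (23%) on that scale, and for 1373 (8.72%) and 7910 (50.2%) as CPM. Of the genes called on the median-ratio scale, 2672 rises and 2248 falls were among them.

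Abundant genes changed more often and by more than scarce ones. Genes were ranked by their mean over the G85 and D243 libraries, which the comparison does not use. D243 shares its leading numbers with D42, however. Such a mean also lifts genes that are high at only G85 or only D243. After rescaling, genes of the top 50 called higher had median levels of 945 at G85 and 10049 at D243. Those called lower had 3659 and 1027. The part of this ranking in the larger changes of the top classes was not tested. The log2 changes also understate those of low genes. Of the top 50, 26 rose and 10 fell as CPM; after rescaling the falls were 9 and the rises again 26. Of these 50, 60% and 66% passed with at least 2-fold on the 2 scales. In ranks 51 to 500 falls prevailed on both scales, with 93 rises and 255 falls as CPM and 128 rises and 197 falls after rescaling. In that class 54% and 52.4% passed with at least 2-fold. In ranks 501 to 5000 the larger side depended on the scale, with 512 rises and 1934 falls or 1090 and 667. Below rank 5000 it was 646 and 3976, or 1511 and 1473. At these lower ranks 6.46% to 13.2% of genes passed with at least 2-fold.

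The genes of ranks 51 to 500 that fell were the least even among the G133 libraries. After rescaling the 197 genes had a median level of 430 in G133 replicate 1, 861 in replicate 2 and 1053 in replicate 3. In the D42 libraries the median was 282, 245 and 283, so all G133 libraries lay above all D42 libraries, replicate 1 by the least. At G85 it was 408, 591 and 421, near the level of G133 replicate 1. Without that library 208 genes of the class fell. The 128 genes of the class that rose went from medians of 266, 237 and 208 in the G133 libraries to 600, 596 and 570 at D42. Among the top 50, the 26 rises had medians of 2646, 2453 and 1793 at G133 and 8043, 7717 and 7732 at D42. In the scarce class below rank 5000, the 1511 rises went from 7.91 to 9.38 at G133 to 15.3 to 16 at D42, and the 1473 falls from 8.96 to 10.8 to 5.15 to 5.85.

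The 4 genes given by identifier were the largest rise, the largest fall, the largest gain and the largest loss in CPM among genes called on both scales with a mean of at least 10 CPM. They were picked by these same libraries, so their tests across birth are a description. The files give no symbol, position or product for them.

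ENSOARG00000003501, the largest rise, stood at 24.4, 18.7 and 36.1 CPM in the G133 libraries and at 847, 1536 and 920 CPM in the D42 libraries. The highest G133 value was in replicate 3. The lowest D42 library was 23.4 times the highest G133 library. Its log2 change of 5.33 had a standard error of 0.245 (limma adjusted p = 2.75e-08), and it was 5.68 after rescaling. It rested on 366 to 840 reads in a G133 library. At the ages outside the comparison it lay at 8.38 to 8.63 CPM at G85 and at 2784 to 4047 CPM at D243.

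ENSOARG00000010539, the largest fall, stood at 95.6, 160 and 140 CPM at G133 and at 4.74, 4.98 and 9.39 CPM at D42. The ages did not overlap, and the lowest G133 value was in replicate 1. Its log2 change of -4.20 had a standard error of 0.236 (limma adjusted p = 1.72e-07), and it was -3.87 after rescaling. It rested on 50 to 172 reads in a D42 library. Its G85 libraries ranged from 102 to 142 CPM and its D243 libraries from 6.57 to 8.7 CPM. The fetal libraries thus formed a high group and the postnatal libraries a low one.

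ENSOARG00000017195, the largest gain in CPM that passed on both scales, stood at 6727, 2812 and 1470 CPM at G133 and at 19263, 24601 and 18148 CPM at D42. The G133 libraries differed by 4.58-fold, with replicate 1 the highest, yet all lay below D42. Its mean rose by 17002 CPM, or by 2.76 ± 0.461 (SE) on the log2 scale (limma adjusted p = 0.000393). Without single libraries the change ran from 2.24 to 3.33 as CPM. Its G85 libraries held 2044 to 3673 CPM and its D243 libraries 17155 to 27530 CPM.

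ENSOARG00000008988, the largest loss in CPM, stood at 6256, 5228 and 8551 CPM at G133 and at 755, 1271 and 325 CPM at D42. The D42 libraries differed by 3.92-fold among themselves and all lay below G133, where replicate 2 was the lowest. Its mean fell by 5895 CPM. On the log2 scale that was -3.27 ± 0.573 (SE; limma adjusted p = 0.000546). The rescaled log2 change was -2.91 (limma adjusted p = 0.00315). Its G85 libraries held 4547 to 9101 CPM. At D243 it was uneven again, at 505, 2797 and 779 CPM.

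**Figure D4:**
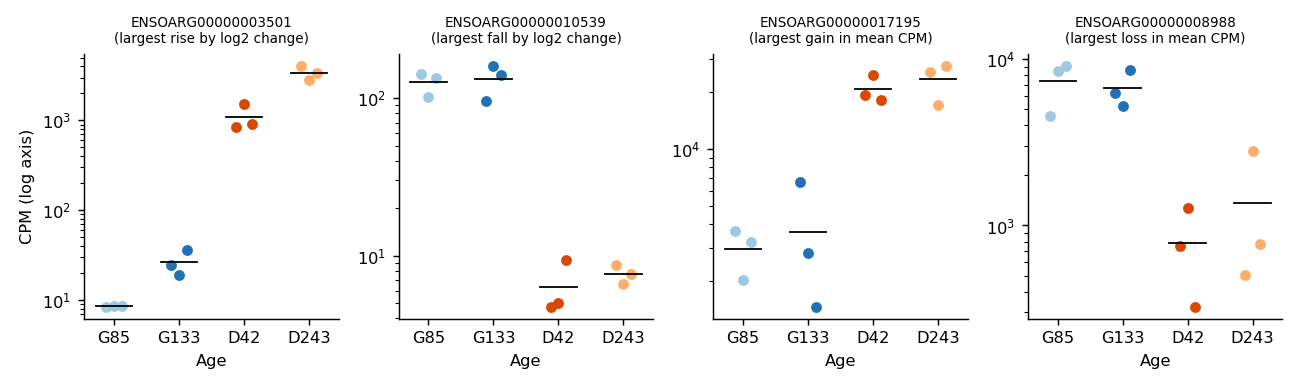
CPM of the 4 genes in each library by age, on log axes that differ between panels, with black bars at the mean of 3 libraries. For each gene the G133 and D42 libraries do not overlap, and G85 lies on the side of G133 and D243 on the side of D42.

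The 12 largest rises and 12 largest falls by the same rule differed in where they began and ended. The 12 rises had G133 means of 2.9 to 398 CPM, with a median of 21.2, and 1 of them reached 100 CPM. At D42 their means were 36.5 to 7952 CPM, with a median of 285, and 10 reached 100 CPM. Their log2 changes were 3.10 to 5.33, with standard errors of 0.195 to 0.691. The 12 falls had G133 means of 11.7 to 6678 CPM, with a median of 102, and 7 of them ended under 10 CPM at D42. Their log2 changes were -2.98 to -4.20, with standard errors of 0.146 to 0.793. As CPM the ages did not overlap for all 12 rises and for 11 of the 12 falls, against 8.72% and 50.2% of all genes. Both sets were chosen from these libraries, so the counts describe the choice. At the ages outside the comparison, the median of the 12 rises was 9.89 CPM at G85 and 508 CPM at D243, and that of the 12 falls 298 CPM at G85 and 5.96 CPM at D243.

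Within the table, few genes went between near silence and expression. The limit used was 3 reads per library, which is 0.129 to 0.191 CPM in the G133 libraries and 0.164 to 0.284 CPM in the D42 libraries. Only 5 genes had at most 3 reads in every G133 library and more in every D42 library. Their D42 means were 1.2 to 7.02 CPM, and 4 were called on each scale, where all genes called higher were 8.11% as CPM and 17.5% after rescaling. The reverse held for 40 genes, with G133 means of 0.302 to 3.67 CPM, of which 34 were called as CPM and 31 on the median-ratio scale. Of all genes 39.2% and 14.9% were called lower. Both sets were chosen by their reads at the ages tested, so nothing is read from these counts. The median of these 40 was 2.19 CPM at G85 and 0.0964 CPM at D243. The table holds only genes above 1 CPM in at least 3 of the 12 libraries, so genes that were low at every age are not in it. Of the 40 genes, 32 met that limit only with the G85 libraries counted, so the limit itself set their G85 level. All 5 genes of the first set met it only with the D42 libraries counted. The D42 libraries were the shallower, and the part of depth in the unequal numbers was not tested.

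The genes that changed across birth also differed between the ages the comparison did not use. D243 minus G85 shares no library with D42 minus G133, although it comes from the same model and D243 shares its leading numbers with D42. After rescaling, 27.6% of all genes were higher at D243 than at G85, and 27.9% were lower. Of the 2755 genes that rose across birth, 2183 were higher at D243 (79.2%) and 99 were lower (3.59%). Of the 2346 that fell, 1489 were lower (63.5%) and 84 were higher (3.58%). Of the 10642 genes not called across birth, 19.6% were higher and 26.4% lower. As CPM, where 9.2% of all genes were higher at D243 and 75.5% lower, the shares were 64.8% higher among the rises and 93.7% lower among the falls. The last share lies against a background that is already high.

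**Figure D5:**
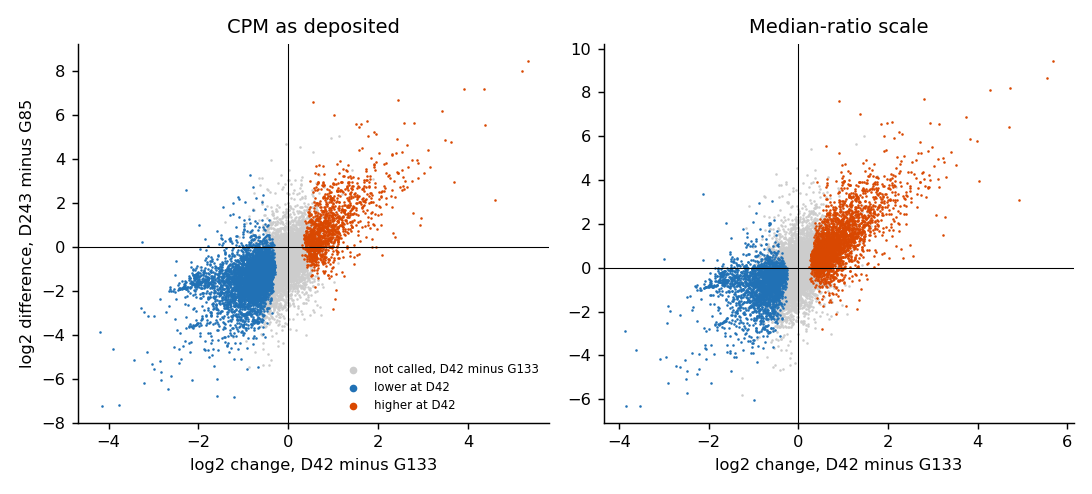
Log2 change D42 minus G133 (x) against log2 difference D243 minus G85 (y) for 15743 genes on the 2 scales, coloured by the call across birth. On the median-ratio scale 79.2% of the rises are called higher and 63.5% of the falls are called lower at D243 than at G85.

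Rises and falls differed in their levels at the outer ages. The median gene among the rises stood at 15.9, 18.2, 32.8 and 37.3 on the median-ratio scale at G85, G133, D42 and D243. Its median log2 difference was 0.76 across birth and 1.02 from G85 to D243. The median gene among the falls stood at 20.8, 18.6, 10.7 and 11 at the same ages, with -0.76 and -0.72. The abundance classes were ranked by the G85 and D243 levels themselves, so their values at these ages are a description. Of the 197 rescaled falls in ranks 51 to 500, 54 were lower at D243 than at G85, 2 were higher and 141 did not pass. Of all genes, 27.9% were lower and 27.6% higher on that scale. The share lower was thus near that of all genes, and the share higher was far below it. The median of the 197 falls was -1.49 across birth and -0.48 from G85 to D243, where that of all genes was -0.0085. As CPM 241 of the 255 falls of this class were lower at D243 than at G85, with a median of -1.43. On that scale 75.5% of all genes were lower. The 26 rises among the top 50 on the median-ratio scale had median levels of 945 at G85 and 10049 at D243, so that they ranked there mainly through D243.

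The spread between replicates was not the same at the 2 ages. The median SD of rescaled log2 levels over all genes was 0.165 at G133 and 0.146 at D42. Among the genes called higher it was 0.197 and 0.144, and among those called lower 0.223 and 0.155. As CPM it was 0.204 and 0.144 over all genes, 0.309 and 0.164 among those called higher and 0.173 and 0.133 among those called lower. The G133 values include replicate 1, which stood apart from the others, and its part in these SDs was not tested. The median standard error of a change on the median-ratio scale was 0.299 in the top 50 genes and 0.133 to 0.223 in the other classes. The smallest change called was 0.30 as CPM and 0.24 on the median-ratio scale.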

How the data were processed

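The authors deposited CPM for 15743 genes in 12 libraries; each column sums to 1000000. Per the submitters' processing notes, FastQC 0.11.9, Trim Galore 0.6.6, RSEM 1.3.3, featureCounts 2.0.2 and edgeR 3.34.1 were among the tools, with no roles stated. Genome build, annotation, strandedness and the handling of reads matching several genes: not given in the sources used here. In the table each gene is above 1 CPM in 3 or more libraries. Above 0, 100% of values came out as whole reads (within 0.01) when divided by the smallest value of their library, and these reads entered the count models.

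Log2(CPM + 1) and its rescaled version were fitted with limma 3.58.1 in R 4.3.3. Age was the only term, variances were moderated along a trend with abundance, and 8 residual degrees of freedom remained. The fit was also run on simulated data in which a small set of genes changed at D42 and all ages otherwise shared a profile. That simulation held no wide shift between ages and no library that stood apart, so it does not bear on these features. Alternatives were pseudocounts, filters, scalings, blocks, thresholds, single libraries left out, edgeR 4.0.16 and DESeq2 1.42.0. Bulk RNA cannot tell fewer cells of a type from less RNA per cell. The members and lists were chosen with earlier results of these data known. Genes were named by the rule in the report: the largest log2 rise and fall and the largest CPM gain and loss among genes called on both scales with a mean of at least 10 CPM. The planned gene lists, which need symbols, were not used.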

Additional observations from a re-analysis of the deposited data

How the results depend on the processing

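The counts as CPM at an adjusted p under 0.01 were 4444 (772 higher, 3672 lower), and with at least 2-fold 1812 (432 and 1380). On the median-ratio scale they were 3183 (1836 and 1347) and 1558 (858 and 700). These thresholds call fewer genes by construction. Leaving out each of the 12 libraries gave 5796 to 7858 genes as CPM (931 to 1732 higher, 4707 to 6581 lower) and 3841 to 5504 on the median-ratio scale (2159 to 2948 and 1651 to 2556). Leaving out each of the 6 G133 and D42 libraries kept the gain in the share of the 50 most abundant genes between 17.9 and 19.3 percentage points. The two-sided exact permutation p was then 0.2 each time, the smallest that 2 libraries against 3 allow. The other alternatives kept these counts within 1.5 times; edgeR gave 2744 higher and 2288 lower, DESeq2 2868 and 2461, quantile normalization 2601 and 2599, and CPM without the 50 most abundant genes 2722 and 1965. The 4 genes given by identifier kept their direction and call under every alternative that included them, with adjusted p up to 0.0172; ENSOARG00000017195 and ENSOARG00000008988 are among the 50 most abundant and so have no value where those are removed. The rises also higher at D243 than at G85 numbered 828 as CPM and 2183 on the median-ratio scale, or 2077 with each contrast fitted to its own 6 libraries, a fit chosen after seeing the data. For falls the numbers were 5785, 1489 and 1468. With the leading number of the descriptions as a block, the counts were 7420 as CPM and 5078 on the median-ratio scale. That block lets D42 and D243 libraries of the same number be correlated. With a replicate block the counts were 7355 as CPM and 5023 on the median-ratio scale. Deviations of G133 and D42 libraries with the same replicate number correlated at -0.12, -0.084 and 0.118 on the median-ratio scale. The replicate numbers were therefore not taken to pair these ages.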

Other observations

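Some pairs of genes had counts that differed, on average over the 12 libraries, by less than counting noise. Among 9982 genes with a mean of at least 10 CPM, 27 pairs had a squared difference over the sum of reads, averaged over the 12 libraries, under 0.1. Separate genes of equal expectation would average near 1. The pairs joined 43 genes into 18 sets, the largest of 5 genes, and 0 pairs had equal reads in all 12 libraries. Of the 43 genes, 29 fell and 6 rose across birth on the median-ratio scale, and 31 fell and 6 rose as CPM. Over the 9982 genes 15.7% fell and 21.6% rose on the median-ratio scale, and 42.1% fell and 10.1% rose as CPM. Genes of a set were joined because their counts nearly coincide, so the 43 genes are not separate observations. The 9982 genes were not matched to the sets in abundance, so these shares are not a like comparison. The sets held 3.2% of reads at G133 and 1.02% at D42. Of the 138 genes that made up 50% of the losses, 17 were in 6 of these sets. Counting each set once left 2751 rises and 2329 falls on the median-ratio scale. None (0) of the 4 genes given by identifier was in a set. Whether reads that match several genes lie behind these sets was not tested, and the pattern was looked for after the data were seen.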
